A study of Mus musculus with 4 samples.

Results

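The genes described are 35 mouse imprinted genes, chosen by name with earlier results of these data known, and every probe set annotated to them was followed. They had 66 annotated probe sets among the 22626 of the array besides controls, and 32 of the 35 had at least 1 probe set annotated to them alone, of 12393 genes so covered. RNA came from mouse embryonic fibroblasts, the mesenchymal cells that grow from dissociated embryos, taken at embryonic day 10.0, and was hybridised to 2 arrays of Med1-/- p53-/- cells and 2 arrays of Med1+/+ p53-/- cells, so that p53 was absent from both groups. Per the labels the strain was C57BL/6J, and both genotypes descended from 1 mating between a Med1+/- p53-/- male and a Med1+/- p53+/- female. The labels do not say how many embryos or cultures stood behind each genotype, so p-values reflect only how far these samples differed, and that spread may be technical.

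Imprinted genes are transcribed mainly from the allele inherited from the mother or mainly from the allele inherited from the father, under the control of DNA methylation set in the germ line. Many act on fetal and placental growth, with paternally expressed genes such as Igf2 promoting growth and maternally expressed genes such as Igf2r, Grb10 and Cdkn1c restraining it. Med1 encodes a subunit of Mediator, which connects DNA-bound transcription factors to RNA polymerase II. The arrays measured the sum of both alleles, so no statement on allelic use can be drawn from them.

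The Med1 signal was 25.4 and 40.2 in Med1-/- cells, against 664.6 and 885.6 with Med1+/+, in the direction of the labels. Xist, the RNA that coats an inactive X chromosome, read 211.2 and 159.6 in Med1-/- cells, against 6723.6 and 7499.6 with Med1+/+, and the part of that difference in the results below was not tested. Fibroblast markers were present in both genotypes, with 12 of 13 above the expression filter. Of these, 7 were higher and 3 lower in Med1-/- cells. The 3 lower were Pdgfra, Prrx1 and S100a4, with log2 changes of -2.95, -2.89 and -2.68. Among the 7 higher the largest change was 1.98, for Col1a1. The summed normalized intensity of the fibroblast markers came to 50105 and 47827 in Med1-/- cells, against 44568 and 41516 with Med1+/+. Vim and Col1a2 were the brightest in that sum, which therefore says little of the dimmer markers. Among 10 epithelial markers, of which 6 were tested, 5 were lower and 1 higher in Med1-/- cells, and the summed intensity was 2354 and 2716 in Med1-/- cells, against 5050 and 5217 with Med1+/+. Epcam, a defining epithelial marker, was at most 4.4 on any array. Others were bright with Med1+/+. Cdh1 had a deposited signal of 22.8 and 20.0 in Med1-/- cells, against 792.7 and 1206.4 with Med1+/+. Krt18 had 74.7 and 71.6 in Med1-/- cells, against 2478.0 and 3569.6 with Med1+/+. Krt19, the 1 that rose, had 1301.8 and 2362.2 in Med1-/- cells, against 783.8 and 1078.4 with Med1+/+. All 4 tested muscle markers of 8 were higher, with sums of 21755 and 21735 in Med1-/- cells, against 10138 and 9986 with Med1+/+. These 4 were Acta2, Actg2, Cnn1 and Des, of which Acta2 was the brightest on every array. The others, Myod1, Myog, Myf5 and Myh11, were under the filter. Myod1, Myog and Myf5, defining muscle markers, were at most 25.6, 15.8 and 4.5 on any array. Of 10 trophoblast markers 7 were on the array and 2 were tested, neither called, with sums of 177 and 122.4 in Med1-/- cells, against 118.8 and 101.1 with Med1+/+. Blood (2 of 7 tested, 1 higher), endothelial (1 of 5 tested, 0 called) and neural (2 of 6 tested, 2 higher) markers were mostly under the filter. The blood sums were 300.6 and 275.2 in Med1-/- cells, against 230.8 and 202.3 with Med1+/+, and the endothelial sums 80.69 and 57.35 in Med1-/- cells, against 43.12 and 67.95 with Med1+/+. The neural sums were 938.1 and 981.2 in Med1-/- cells, against 279.4 and 259.9 with Med1+/+. Beside these marker counts, 39.1% of all features tested were higher and 36.2% lower. The part of these marker differences in the results on imprinted genes was not tested.

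Most imprinted genes that the cells expressed were lower without Med1, and a smaller number were higher. Of the 35 genes, 19 passed the filter on dim signals, which left out features with a mean under the 40th percentile. Among these 19, 12 fell and 7 rose without Med1 (limma over 8923 features, Benjamini-Hochberg threshold 0.05), and all 19 had genotypes that did not overlap. The filter used the mean over all 4 arrays, so these counts describe the genes bright enough to pass and not all 35. The background was high, since 36.2% of all features were lower, 39.1% were higher and 75.3% were called in either direction, and 88.2% had genotypes that did not overlap. The median log2 difference of the 19 was -0.62, against 0.09 for all features. The median absolute log2 change was 0.95 for the 19 and 0.836 for all features, and 8 of the 19 differed at least 2-fold, where 40.4% of all features were called and differed by that much. In a second fit with every probe set as a feature, all 32 probe sets above the filter that name 1 gene of the list were tested, of which 10 were higher, 19 lower and 3 not called, against 36.3% higher, 35.3% lower and 71.6% called of all probe sets (86.6% with genotypes that did not overlap, and 39% called and at least 2-fold apart). Each array's deviation from the feature mean was also adjusted for gene density and genomic length. Then 7 of the 19 were lower and 7 higher, while of all 8923 features 2937 were lower and 3186 higher. The median of the 19 moved to -0.131, against 0.0486 for all features.

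All log2 values below are log2(quantile normalized intensity + 1.7), and changes are Med1-/- minus Med1+/+ on that scale, on which the pseudocount shrinks the differences of dim genes. Each change is thus read against the rest of the genes measured, and directions are those of this scaling. The order in which values of a genotype are given is that of the replicate numbers in the labels.

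**Figure D1:**
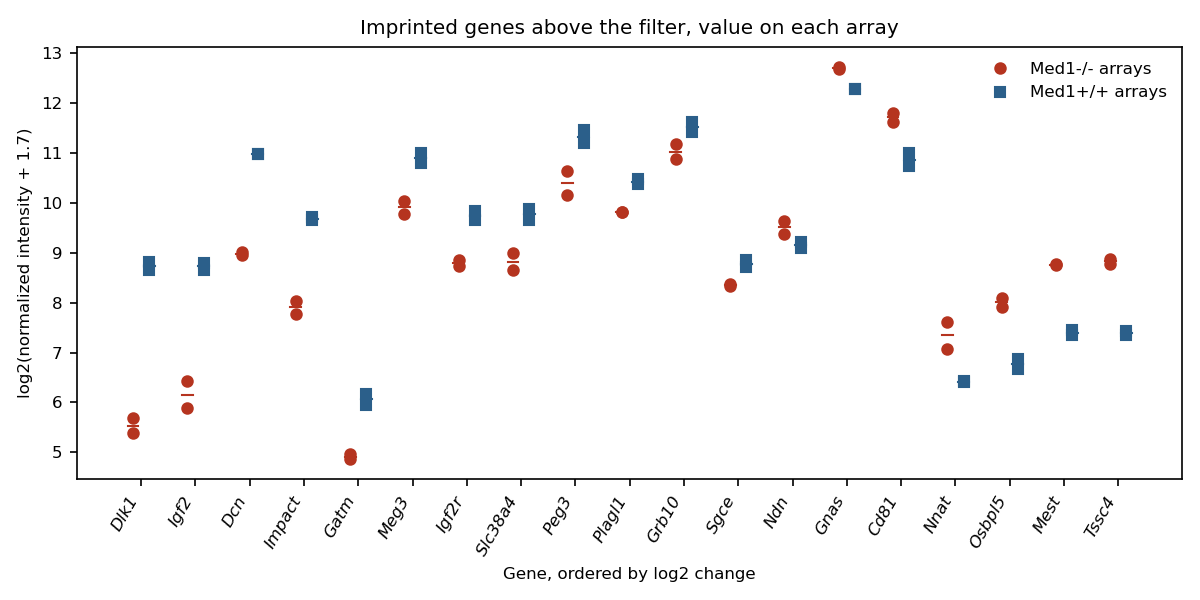
Each of the 19 imprinted genes above the filter is plotted on the horizontal axis, ordered by log2 change, against its log2 normalized intensity on the vertical axis. Circles are the 2 Med1-/- arrays, squares the 2 Med1+/+ arrays and short lines their means. The genotypes do not overlap for any of the 19, with Dlk1 and Igf2 lowest in Med1-/- relative to Med1+/+ cells and Mest and Tssc4 highest, the last pair reversing when arrays are scaled on the Bacillus subtilis controls.

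The growth factor gene Igf2 and the probe set annotated to both H19 and Mir675 were much lower in Med1-/- cells. Igf2 and H19 share a domain on distal chromosome 7, where an insulator between them directs enhancers to Igf2 on the paternal allele and to the non-coding RNA H19 on the maternal allele. Igf2 read 6.42 and 5.88 in Med1-/- cells, against 8.66 and 8.80 with Med1+/+. Both Med1-/- values were far below both Med1+/+ values. The difference was 5.99-fold, a log2 difference of -2.58 (SE 0.2; limma with 2 arrays a genotype, Benjamini-Hochberg adjusted p = 6.42e-05). The other Igf2 probe set, 1415931_at, had no signal above 2.5 on any array. In RNA of whole cultures, fewer cells that express a gene and less RNA per cell cannot be told apart, here and for every gene below.

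The probe set 1448194_a_at, which the platform annotation gives to H19 and Mir675 together, had a deposited signal of 18.3 and 17.0 in Med1-/- cells, against 331.1 and 359.5 with Med1+/+. The log2 difference was -3.25 (SE 0.25; limma with 2 arrays a genotype, Benjamini-Hochberg adjusted p = 6.56e-05). Its mean log2 value was 4.83 in Med1-/- cells, against 8.07 with Med1+/+, and as the filter level was 4.98 it passed only through the Med1+/+ arrays. It is not counted among the 19, since its annotation names more than 1 gene. Mir675 is processed from the H19 transcript, and its mature arms are shown because this probe set carries the microRNA's name although the microRNA itself was not measured. They are given 5′ to 3′ from RefSeq (GRCm38.p6), with the seed, bases 2 to 8, in capitals, and the arms share no seed.
mmu-miR-675-5p: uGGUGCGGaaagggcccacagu
mmu-miR-675-3p: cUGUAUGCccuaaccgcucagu

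The Igf2 promoter printed here is the one of 4 in the RefSeq table that holds a match to the hexamer bound by ZFP57, the zinc finger protein that keeps methylation at imprinting control regions. Promoters are 300 bases, from 250 before to 50 after a transcript start in GRCm38.p6, written 5′ to 3′ along the gene, with the match in capitals.
Igf2, chr7:142661222-142661521, minus strand: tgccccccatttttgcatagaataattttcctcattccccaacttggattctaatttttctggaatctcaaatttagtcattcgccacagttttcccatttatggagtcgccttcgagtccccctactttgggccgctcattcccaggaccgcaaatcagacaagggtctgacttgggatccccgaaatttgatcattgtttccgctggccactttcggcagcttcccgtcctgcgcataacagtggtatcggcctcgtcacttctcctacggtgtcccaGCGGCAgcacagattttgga

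Igf2r encodes the receptor that takes up IGF2 and delivers it to lysosomes, and Grb10 an adaptor that restrains insulin and IGF1 receptor signalling. Both are maternally expressed growth restrainers, and both were lower in Med1-/- cells alongside Igf2. Igf2r read 8.85 and 8.74 in Med1-/- cells, against 9.83 and 9.65 with Med1+/+. The genotypes were apart by more than the spread within either, a log2 difference of -0.95 (SE 0.12; limma with 2 arrays a genotype, Benjamini-Hochberg adjusted p = 0.000352), and the other Igf2r probe set gave -0.92. Airn, the paternally expressed non-coding RNA that overlaps Igf2r in antisense, fell by 1.60 on the log2 scale in the same cells. Grb10 read 11.17 and 10.87 in Med1-/- cells, against 11.63 and 11.41 with Med1+/+. The higher Med1-/- value was only a little below the lower Med1+/+ value, and the change was -0.50 (SE 0.14; limma with 2 arrays a genotype, Benjamini-Hochberg adjusted p = 0.0132). A second, dimmer Grb10 probe set, 1430164_a_at, changed by -1.58, and the mean over probe sets by -0.84. The Grb10 call was lost without Med1+/+ replicate 1 (-0.39), without Med1-/- replicate 2 (-0.35) and with medians (-0.05) or 75th percentiles (-0.23) set equal, and the sign turned once gene density and length were adjusted for (0.12).

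Among 13 other genes of the Igf2 pathway, 10 were tested, of which 4 rose and 5 fell, with a median log2 difference of -0.546. These counts stand beside 39.1% higher and 36.2% lower among all features. Igfbp2 and Igfbp3, which encode secreted proteins that bind IGFs, fell by 3.47 and 1.76 on the log2 scale. Igfbp6, whose product prefers IGF2, rose by 1.55, and Igf2bp1, which encodes a protein that binds Igf2 mRNA, rose by 1.19. Igf1r, the signalling receptor for IGF1 and IGF2, was higher as well (log2 change 1.14). As deposited, Igf1r was 270.2 and 350.1 in Med1-/- cells, against 208.7 and 317.1 with Med1+/+. Igf2bp1 was 307.5 and 433.7 in Med1-/- cells, against 247.1 and 349.2 with Med1+/+. Both genes thus overlapped between genotypes as deposited, whereas Igfbp6 did not. Igf2bp3, a relative of Igf2bp1, changed by -1.18 and was called lower. Igf1r and Igf2bp3 are named here after their values were seen.

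In the Dlk1-Dio3 domain on chromosome 12, Dlk1 and Meg3 were both lower, with 1 of 5 Meg3 probe sets running the other way. Dlk1, a paternally expressed relative of the Notch ligands that restrains fat cell differentiation, read 5.38 and 5.68 in Med1-/- cells, against 8.82 and 8.65 with Med1+/+. It lay near the filter level without Med1 and well above it with Med1. Its log2 difference of -3.20 (SE 0.17; limma with 2 arrays a genotype, Benjamini-Hochberg adjusted p = 3.15e-05) was the largest among the 19 genes and wider in size than that of 99.1% of all features. Its probe set identifier ends in _s_at, a kind that can match transcripts of other genes. The Dlk1 promoter, shown as that of the largest fall among the 19 genes, held none of the 3 motifs searched for.
Dlk1, chr12:109452573-109452872, plus strand: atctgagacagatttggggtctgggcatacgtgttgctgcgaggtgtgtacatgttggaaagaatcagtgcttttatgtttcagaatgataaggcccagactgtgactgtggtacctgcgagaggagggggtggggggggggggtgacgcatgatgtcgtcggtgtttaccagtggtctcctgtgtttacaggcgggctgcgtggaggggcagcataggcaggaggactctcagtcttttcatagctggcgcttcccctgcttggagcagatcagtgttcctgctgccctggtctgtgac

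Meg3, the maternally expressed non-coding RNA of the same domain, read 10.04 and 9.77 in Med1-/- cells, against 11.00 and 10.80 with Med1+/+ on its brightest probe set. Every Med1-/- value was below every Med1+/+ value, with a log2 difference of -0.99 (SE 0.13; limma with 2 arrays a genotype, Benjamini-Hochberg adjusted p = 0.000462). Its 5 probe sets did not move together. The 4 brighter ones changed by -0.99, -0.85, -1.11 and -0.99, whereas the dimmest, 1436057_at, rose by 0.71 (SE 0.22; limma with 2 arrays a genotype, Benjamini-Hochberg adjusted p = 0.0241 over 13576 probe sets). That probe set read 6.37 and 6.24 in Med1-/- cells, against 5.48 and 5.72 with Med1+/+. Without _s_at, _x_at and _a_at probe sets it was the 1 that represented Meg3, at 0.72, and with the mean over probe sets Meg3 changed by -0.65. Rian, a further maternally expressed non-coding RNA downstream of Meg3, changed by -0.48 and was called lower. The fall of Meg3 lost its call once gene density and length were adjusted for (-0.25, Benjamini-Hochberg adjusted p = 0.163 in limma). Dio3, the deiodinase gene at the other end of the domain, had no probe set in the annotation used here.

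**Figure D2:**
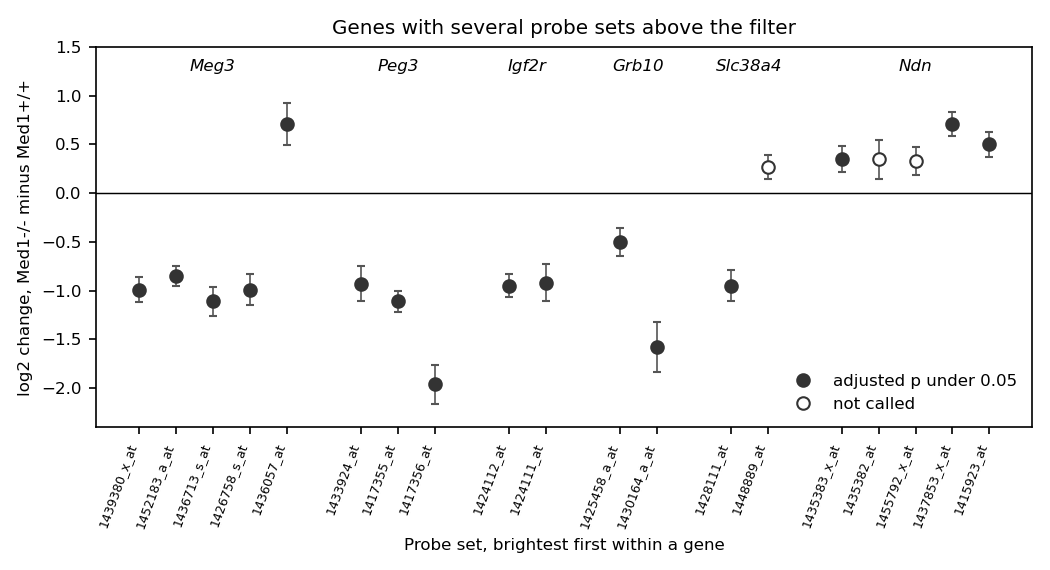
For the 6 genes with several probe sets above the filter, each point is 1 probe set, placed by its log2 change, Med1-/- minus Med1+/+, with bars for the standard error (n = 2 arrays each) and filled where the adjusted p is under 0.05. The 4 brighter Meg3 probe sets lie between -1.11 and -0.85 and the fifth at 0.71, and the Slc38a4 pair lies at -0.95 and 0.27.

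Among imprinted genes for zinc finger proteins, Peg3 and Plagl1 were lower. Peg3, a paternally expressed regulator of growth and maternal behaviour, read 10.64 and 10.15 in Med1-/- cells, against 11.45 and 11.20 with Med1+/+. The genotypes were separate although the Med1-/- arrays differed between themselves, and the log2 change was -0.93 (SE 0.18; limma with 2 arrays a genotype, Benjamini-Hochberg adjusted p = 0.00266). Its other probe sets gave -1.11 and -1.96, so that the size of the fall depended on the probe set. Plagl1, also called Zac1, is a paternally expressed transcription factor that regulates other imprinted genes. Of its probe sets, 1450533_a_at had no signal above 3.4 on any array. The other, 1426208_x_at, is of a kind that can match transcripts of other genes. On it Plagl1 read 9.81 on both Med1-/- arrays, against 10.38 and 10.47 with Med1+/+. Its change of -0.62 (SE 0.099; limma with 2 arrays a genotype, Benjamini-Hochberg adjusted p = 0.00119) lost its call once gene density and length were adjusted for (-0.13). Usp29 and Zim1, the neighbours of Peg3, were under the filter, Usp29 with a deposited signal of 9.1 and 7.5 in Med1-/- cells, against 27.0 and 31.4 with Med1+/+ and Zim1 with at most 8.7 on any array.

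Peg3 and Usp29 start head to head, and their promoter windows overlap by 263 bases. The Peg3 window is shown since it lies almost wholly within the window of Usp29 and holds the 8-letter PLAGL1 site GGGGCCCC, in capitals.
Peg3, chr7:6730370-6730669, minus strand: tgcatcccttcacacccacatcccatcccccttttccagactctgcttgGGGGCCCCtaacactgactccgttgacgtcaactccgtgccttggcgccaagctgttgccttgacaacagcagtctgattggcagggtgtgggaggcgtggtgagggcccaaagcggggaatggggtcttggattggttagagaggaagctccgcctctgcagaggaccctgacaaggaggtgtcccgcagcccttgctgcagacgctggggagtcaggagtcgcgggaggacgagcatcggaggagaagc

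Mest, a paternally expressed gene of embryonic mesoderm whose product resembles hydrolases, was higher in Med1-/- cells. It read 8.75 and 8.77 in Med1-/- cells, against 7.35 and 7.46 with Med1+/+. The replicates were close to each other in both genotypes, and the change was 1.36 (SE 0.12; limma with 2 arrays a genotype, Benjamini-Hochberg adjusted p = 9.54e-05). As deposited, the Mest signal was 249.1 and 367.3 in Med1-/- cells, against 178.7 and 271.3 with Med1+/+, so the genotypes overlapped, and the change was 0.46 and not called. Scaled on the Bacillus subtilis controls it was -0.45. Copg2, the neighbouring gene that overlaps the Mest transcript, fell by 1.44 in the same cells. The Mest promoter printed here, of 3 in the table of which a pair nearly coincide, carries 2 matches to the ZFP57 hexamer, in capitals.
Mest, chr6:30737800-30738099, plus strand: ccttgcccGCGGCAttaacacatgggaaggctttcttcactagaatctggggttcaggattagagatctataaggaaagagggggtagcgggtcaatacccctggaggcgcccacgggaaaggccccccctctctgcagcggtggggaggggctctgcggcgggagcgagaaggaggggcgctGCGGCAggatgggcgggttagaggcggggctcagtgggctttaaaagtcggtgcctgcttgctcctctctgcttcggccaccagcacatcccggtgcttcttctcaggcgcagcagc

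The Kcnq1 domain, on distal chromosome 7 beside Igf2 and H19, is a set of maternally expressed genes silenced on the paternal allele by a long non-coding RNA. Its 8 genes on the list split by their signal. The 3 that passed the filter, Tssc4, Cd81 and Osbpl5, all rose in Med1-/- cells, where 39.1% of all features were higher and 75.3% called, and these lie towards the ends of the domain where imprinting is known chiefly from the placenta. Tssc4, which encodes a protein linked to splicing complexes, read 8.88 and 8.78 in Med1-/- cells, against 7.36 and 7.43 with Med1+/+. That was the largest rise among the 19 genes, a change of 1.43 (SE 0.12; limma with 2 arrays a genotype, Benjamini-Hochberg adjusted p = 8.24e-05). Osbpl5, an oxysterol-binding protein family gene, read 8.09 and 7.92 in Med1-/- cells, against 6.67 and 6.88 with Med1+/+, a change of 1.23 (SE 0.15). Cd81, which encodes a tetraspanin of the cell surface, read 11.81 and 11.63 in Med1-/- cells, against 10.99 and 10.74 with Med1+/+, a change of 0.86 (SE 0.12). Neither gene had overlapping genotypes. The log2 differences of Tssc4, Osbpl5 and Cd81 were 0.53, 0.27 and 0.30 as deposited, without a call. On the hybridisation controls they were 0.50, 0.23 and 0.26, with Tssc4 called and Osbpl5 and Cd81 not. They were -0.37, -0.64 and -0.62 when scaled on the Bacillus subtilis controls. The Tssc4 promoter, shown as that of the largest rise among the 19 genes, held none of the 3 motifs.
Tssc4, chr7:143069118-143069417, plus strand: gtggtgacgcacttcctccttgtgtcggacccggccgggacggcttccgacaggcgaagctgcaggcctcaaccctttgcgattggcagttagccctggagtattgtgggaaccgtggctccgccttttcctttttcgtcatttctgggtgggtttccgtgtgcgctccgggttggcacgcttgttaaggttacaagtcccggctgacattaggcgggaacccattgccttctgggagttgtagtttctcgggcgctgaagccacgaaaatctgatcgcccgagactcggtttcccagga

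The other 5 genes of the Kcnq1 domain were under the filter. Cdkn1c, which encodes the cyclin-dependent kinase inhibitor p57, had a deposited signal of 2.2 and 3.3 in Med1-/- cells, against 51.6 and 52.7 with Med1+/+. It was thus dim with Med1 and close to the pseudocount without it. When no filter was applied it was called lower (log2 change -2.93, SE 0.47; limma with 2 arrays a genotype, Benjamini-Hochberg adjusted p = 0.0027 over 14639 features, of which 22.7% were lower). Phlda2, a restrainer of placental growth, Slc22a18, a transporter gene, Kcnq1, a potassium channel gene, and Ascl2, a trophoblast transcription factor gene, gave at most 22.7 on any array and were not called. Of the listed neighbours of this domain, Nap1l4 was lower (-0.39) and Tnfrsf22 higher (0.82), both named for their place and after their values were seen. As deposited, Tnfrsf22 overlapped between genotypes, with 30.4 and 44.5 in Med1-/- cells, against 34.4 and 52.2 with Med1+/+.

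In the Prader-Willi domain on chromosome 7, whose genes are paternally expressed, Ndn was a little higher. Ndn encodes necdin, a MAGE family protein of neurons and mesenchyme, and read 9.37 and 9.64 in Med1-/- cells, against 9.09 and 9.22 with Med1+/+. The lower Med1-/- value exceeded the higher Med1+/+ value by little, and the change of 0.35 (SE 0.13; limma with 2 arrays a genotype, Benjamini-Hochberg adjusted p = 0.0432) was lost without Med1+/+ replicate 1 (0.29), without Med1+/+ replicate 2 (0.41) and without Med1-/- replicate 2 (0.22). It turned to -0.46 as deposited, -0.50 with hybridisation controls set equal and -1.37 with Bacillus subtilis controls. On either kind of controls Ndn was called lower. The call of a rise was also lost without the filter, without an intensity trend, without _s_at, _x_at and _a_at probe sets and at a threshold of 0.01. It held in 11 of 21 alternatives. Of 5 Ndn probe sets above the filter 3 were called, with changes from 0.33 to 0.71 over the 5. The Ndn change was 0.67 with the mean over all its probe sets and 0.80 with gene density and length adjusted for. That mean takes in 1438939_x_at, 1456575_at and 1438978_x_at, which were under the filter, at most 11.7 on any array. They changed by 1.61, 1.34 and 0.14. Snrpn, which encodes a splicing protein made in neurons, had 1 probe set of its own, at most 4.6 on any array. The brightest of 4 probe sets annotated jointly to Snurf and Snrpn read 8.65 and 8.99 in Med1-/- cells, against 7.96 and 7.92 with Med1+/+ (log2 change 0.88, SE 0.14; limma with 2 arrays a genotype, Benjamini-Hochberg adjusted p = 0.00133). The 2 others above the filter changed by 1.48 and 0.81 and were not called, with Med1+/+ values as far apart as 7.15 and 5.07. Magel2, a MAGE family gene, and Mkrn3, which encodes a ring finger protein that holds back puberty, were at most 28.0 and 28.5 on any array. Ube3a, the maternally expressed ubiquitin ligase gene beside this domain, fell by 1.7 on the log2 scale.

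On chromosome 2, Gnas and Nnat were higher. Gnas encodes the stimulatory G protein alpha subunit, made from both alleles in most tissues, along with transcripts of single parental origin, and its bright probe set read 12.69 and 12.73 in Med1-/- cells, against 12.29 and 12.28 with Med1+/+. The change of 0.42 (SE 0.084; limma with 2 arrays a genotype, Benjamini-Hochberg adjusted p = 0.00332) was no call in the values as deposited (-0.01) or on the hybridisation controls (-0.04), and it was -0.92 scaled on the Bacillus subtilis controls. The 3 other Gnas probe sets were under the filter, and with the mean over all probe sets the Gnas change was -0.35, or -0.76 without _s_at, _x_at and _a_at probe sets. With gene density and length adjusted for it was 0.93. Nnat, which encodes the small membrane protein neuronatin and lies inside an intron of Blcap, read 7.08 and 7.62 in Med1-/- cells, against 6.43 and 6.40 with Med1+/+. The Med1-/- arrays were above the Med1+/+ arrays but 0.54 apart, and the change was 0.94 (SE 0.21; limma with 2 arrays a genotype, Benjamini-Hochberg adjusted p = 0.0058). As deposited it was -0.07, with hybridisation controls set equal -0.10 and with Bacillus subtilis controls -0.97. Blcap changed by 0.97 and was called higher. As deposited its genotypes overlapped, at 367.3 and 547.9 in Med1-/- cells, against 372.8 and 451.5 with Med1+/+.

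In the Peg10-Sgce domain on chromosome 6, Sgce was slightly lower. It encodes a sarcoglycan of the cell membrane and read 8.37 and 8.33 in Med1-/- cells, against 8.71 and 8.85 with Med1+/+, a change of -0.43 (SE 0.12; limma with 2 arrays a genotype, Benjamini-Hochberg adjusted p = 0.0119). The call was lost without Med1+/+ replicate 2 (-0.37) and with array medians set equal (-0.24), and the sign turned once gene density and length were adjusted for (0.23). Asb4, a maternally expressed gene for an adaptor of ubiquitin ligases, had a deposited signal of 0.9 and 1.7 in Med1-/- cells, against 74.6 and 95.9 with Med1+/+. It was under the filter because of its near loss in Med1-/- cells, and without the filter it was called lower (log2 change -4.32, SE 0.46; limma with 2 arrays a genotype, Benjamini-Hochberg adjusted p = 0.000511). Its second probe set ran the same way, at 1.2 and 1.0 in Med1-/- cells, against 34.0 and 56.9 with Med1+/+. Peg10, a gene of retrotransposon origin needed for the placenta, gave at most 8.3 on any array. Ppp1r9a had no probe set in the annotation used here.

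Dcn, Impact, Gatm and Slc38a4, which belong to none of these domains, were lower, Slc38a4 on 1 of its 2 probe sets. Dcn, which encodes the collagen-binding matrix proteoglycan decorin, read 9.01 and 8.95 in Med1-/- cells, against 10.98 and 10.97 with Med1+/+. The replicates nearly coincided and the difference was 3.98-fold, a log2 difference of -1.99 (SE 0.098; limma with 2 arrays a genotype, Benjamini-Hochberg adjusted p = 3.15e-05). Impact, whose product restrains the amino acid sensor kinase GCN2, read 8.04 and 7.78 in Med1-/- cells, against 9.66 and 9.71 with Med1+/+, a change of -1.77 (SE 0.13). Gatm, the first enzyme gene of creatine synthesis, read 4.96 and 4.86 in Med1-/- cells, against 6.16 and 5.95 with Med1+/+, a change of -1.15 (SE 0.26) whose call was lost without Med1+/+ replicate 1 (-1.04). Its mean was 4.91 in Med1-/- cells, against 6.06 with Med1+/+, and as the filter level was 4.98 it passed only through the Med1+/+ arrays. When gene density and length were adjusted for, Dcn and Impact kept their calls at smaller changes of -1.27 and -1.05.

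Slc38a4, a gene for an amino acid transporter, read 8.65 and 9.0 in Med1-/- cells, against 9.65 and 9.88 with Med1+/+ on its brighter probe set. The genotypes were apart there, with a change of -0.95 (SE 0.15; limma with 2 arrays a genotype, Benjamini-Hochberg adjusted p = 0.00123) that lost its call once gene density and length were adjusted for (-0.20). Its other probe set read 8.57 and 8.70 in Med1-/- cells, against 8.33 and 8.40 with Med1+/+, a change of 0.27 that was not called (SE 0.12; limma with 2 arrays a genotype, Benjamini-Hochberg adjusted p = 0.0783). With the mean over both the change was -0.34. Rasgrf1, a Ras exchange factor gene of brain, was under the filter on all 3 probe sets, at most 21.1 on any array.

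**Figure D3:**
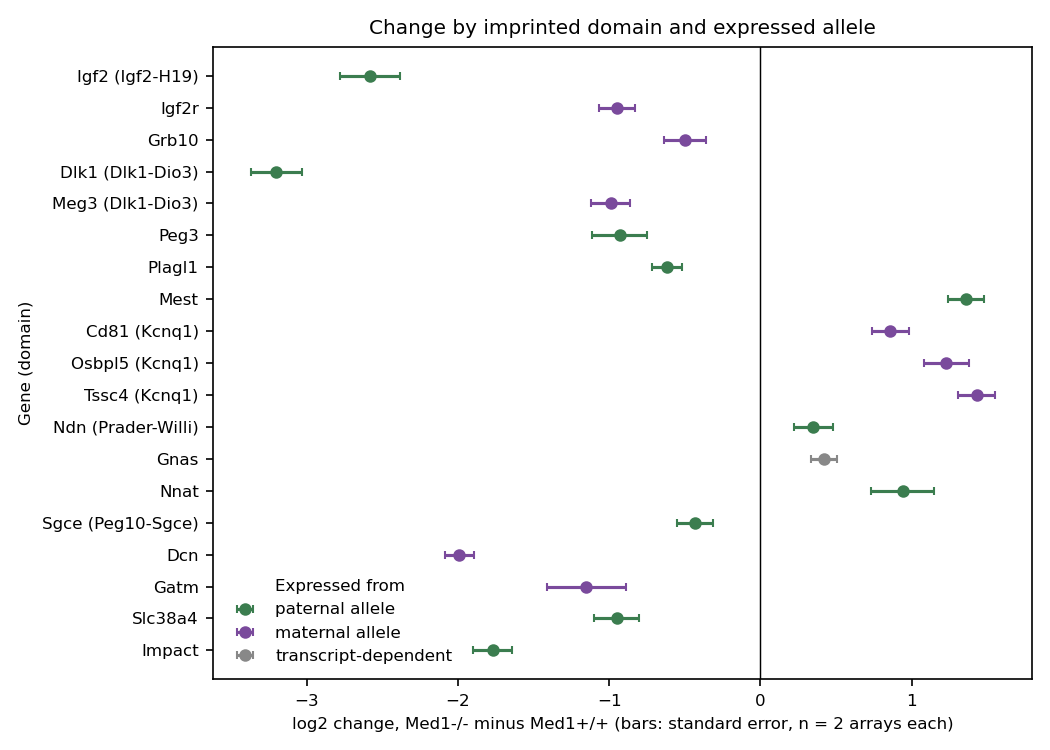
The log2 change, Med1-/- minus Med1+/+, of each of the 19 genes is shown on the horizontal axis with its standard error (n = 2 arrays each). Genes are grouped down the page by imprinted domain and coloured by the allele that the gene list assigns, which was not measured here. The 3 Kcnq1 domain genes lie between 0.86 and 1.43 and both Dlk1-Dio3 genes at or below -0.99, and all 7 genes above 0 turn negative on the Bacillus subtilis controls.

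The genes were also grouped by the allele that the gene list assigns to each, which was not measured in these cells. Of 10 tested genes listed as paternally expressed 7 fell and 3 rose, with a median log2 difference of -0.775. Among 8 tested genes listed as maternally expressed 5 fell and 3 rose, with a median of -0.725. The ranges overlapped almost wholly, from -3.20 to 1.36 for paternally and from -1.99 to 1.43 for maternally expressed genes, and the difference between the 2 kinds was not tested. The background for these counts is the 36.2% lower and 39.1% higher of all features. Of the 13 genes under the filter 2 were called, both lower, when it was removed. In that fit 22.7% of 14639 features were lower and 46.3% were called in either direction. The other 11 genes had a lowest adjusted p of 0.2, for Usp29 (limma, Benjamini-Hochberg). On the probe sets used in that fit these 11 were at most 31.4 on any array. The missed threshold does not show that they did not differ. Snrpn entered that fit through its own probe set alone, while its brightest joint probe set with Snurf passed the filter and was called higher.

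Further imprinted genes, on a list of 42, moved both ways. Of these 28 were on the array and 17 tested, with 6 higher, 8 lower and a median of -0.245. Over all features 39.1% were higher and 36.2% lower. Pde10a, a phosphodiesterase gene, rose by 2.98, the largest change among the 17. Its mean log2 value was 7.66 in Med1-/- cells, against 4.68 with Med1+/+. As the filter level was 4.98, it passed only through the Med1-/- arrays. Ube3a, Airn and Copg2 fell as given above. H13, a signal peptide peptidase gene, rose by 1.34, and Mcts2, the paternally expressed retrogene inside an intron of H13, fell by 0.71 on the log2 scale, although near copies of it exist elsewhere in the genome. Casd1, the neighbour of Sgce, fell by 1.30. These last 3 are named for their place and after their values were seen.

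Genes for the machinery that sets or keeps imprints were also mixed. Among 15 tested of 24, 5 were higher, 7 lower and 3 not called, with a median of -0.26. The shares for all features were 39.1% higher and 36.2% lower. Trim28, the corepressor that ZFP57 recruits, read 11.28 and 11.20 in Med1-/- cells, against 9.46 and 9.34 with Med1+/+, a change of 1.84. Mbd3, a gene of the NuRD complex, rose by 1.30. Hells, which encodes a chromatin remodeller needed for DNA methylation, and Suz12, a Polycomb gene, each fell by 1.39 on the log2 scale. Ctcf, the insulator protein gene of the Igf2-H19 domain, changed by -1.01 and Dnmt1, the maintenance methyltransferase gene, by 0.78. Both were called and both are named after their values were seen. As deposited, Dnmt1 overlapped between genotypes, with 1459.3 and 1848.5 in Med1-/- cells, against 1388.8 and 1666.7 with Med1+/+. Trim28 and Mbd3 did not overlap as deposited. Zfp57 itself was under the filter, with a deposited signal of 7.8 and 29.3 in Med1-/- cells, against 9.4 and 38.6 with Med1+/+.

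The nearest tested genes on either side of each of the 19, leaving out other imprinted genes, gave 32 distinct neighbours, of which 15 were higher, 9 lower and 8 not called, with a median log2 difference of 0.275. Of all features 39.1% were higher and 36.2% lower. The neighbours had the sign of the imprinted gene in 23 of 38 pairs, in which some neighbours recur. Some were distant, such as Herc2, 6208 kb from Ndn. Around Tssc4, Cd81 and Osbpl5 the neighbours R74862 (0.80), Cars (0.58) and Dhcr7 (0.80) were all higher too. Nap1l4 (-0.39) and Tnfrsf22 (0.82), listed neighbours of the Kcnq1 domain, were left out there as imprinted genes. Beside Igf2, R74862 was higher and Mrpl23 changed by 0.22 without a call, and beside Dlk1 and Meg3, Wars was higher (1.53) and Ppp2r5c lower (-0.53). These genes were chosen by position, after the data were seen.

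In all, 28 of the 35 genes had 47 promoters in the RefSeq table, some of them overlapping. The ZFP57 hexamer TGCCGC, searched on both strands, was in 10 of the 47 (21.3%) and in 11.6% of all 32851 promoters. The palindrome GGGGCCCC was in 4 of the 47 (8.51%), those of Peg3, Usp29, Ppp1r9a and Rasgrf1, and in 1.08% of all. The overlapping Peg3 and Usp29 promoters hold the same palindrome, and the nearly coinciding Mest promoters the same hexamer matches. These shares thus count promoters and not separate sites. The TATA box TATAAA was in 10 (21.3%) and in 13.6% of all. No match overlapped another motif in the promoters printed above. The 9 genes with the hexamer were Grb10, Igf2, Meg3, Mest, Nnat, Osbpl5, Plagl1, Snrpn and Zim1, and they included genes that rose as well as genes that fell. The median number of CG pairs was 15 in the 47 promoters and 7 in all, and base composition affects how often such motifs are met.

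The scaling between arrays set the sign of several changes. The median log2 difference of all features was 0.09 after quantile normalization, 0.298 with medians and 0.113 with 75th percentiles set equal, -0.757 as deposited, -0.796 with hybridisation controls set equal and -1.66 with Bacillus subtilis controls. All but quantile normalization multiply each array by 1 factor or leave it as it is, so they shift every gene by about the same amount, and a gene's place relative to that median is nearly fixed among them by construction. The informative comparison is between quantile normalization and these. Relative to the median of all features, Gnas was at 0.33 after quantile normalization and at 0.75 as deposited, Ndn at 0.26 and 0.3, and Igf2 at -2.67 and -2.79. The 12 genes that fell lay below that median and the 7 that rose above it in both. In the values as deposited none of the 7 was called higher.

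**Figure D4:**
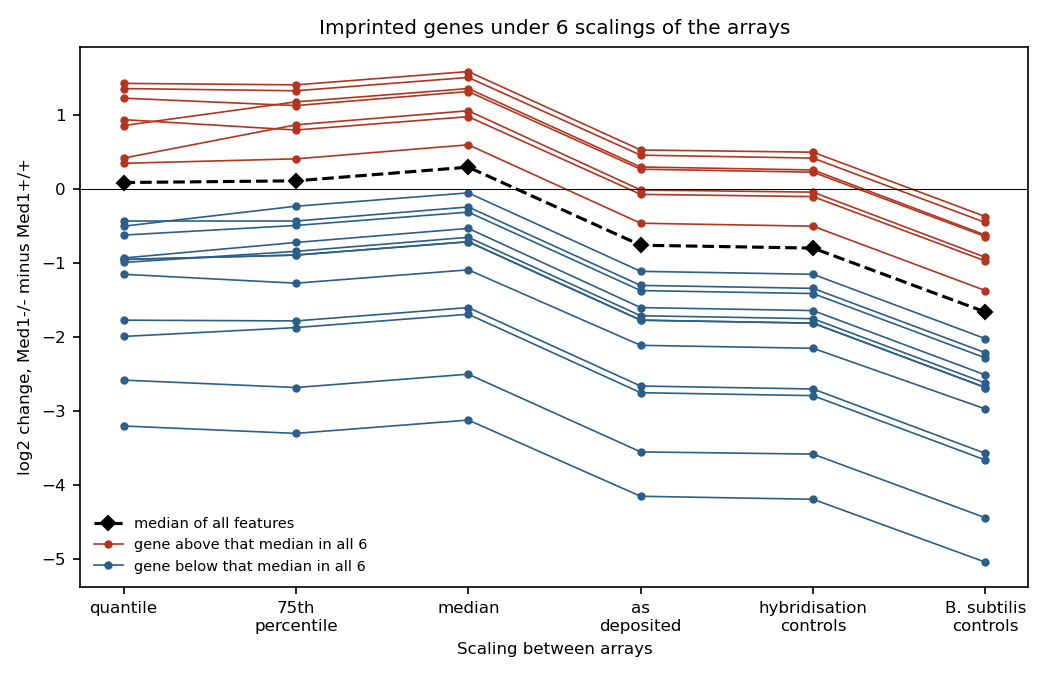
Lines follow the log2 change, Med1-/- minus Med1+/+, of each of the 19 genes (vertical axis) across 6 scalings of the arrays (horizontal axis), with black diamonds for the median of all features. All lines shift with the diamonds, which run from 0.298 with medians set equal to -1.66 on the Bacillus subtilis controls, so that the 7 genes above 0 after quantile normalization are below 0 on the Bacillus subtilis controls.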

How the data were processed

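Total RNA of 2 Med1-/- p53-/- and 2 Med1+/+ p53-/- cultures or preparations was biotin-labelled during in vitro transcription and hybridised to Affymetrix arrays, per the labels' protocols. The authors deposited a linear intensity for every probe set on each array, and the sources used here do not state its summary or scaling method. The arrays had a median intensity of 36.1 and 51.4 (Med1-/-) and 76.25 and 106.65 (Med1+/+), so they were quantile normalized over 22626 probe sets, leaving out 64 controls, and taken as log2(value + 1.7), the 10th percentile. Their number limits the precision.

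Symbols came from the platform annotation, checked through Entrez identifiers against RefSeq (GRCm38.p6). Of the probe sets 20380 had 1 symbol, 691 several and 1555 none. The filter removed 9050 probe sets. A gene was read from its brightest probe set, and a second fit took every probe set as a feature. Genotypes were compared two-sided with limma 3.58.1 in R 4.3.3 (lmFit, then eBayes with a trend in intensity), with Benjamini-Hochberg adjustment and a threshold of 0.05. The procedure was tested on simulated data. Members and lists were chosen with earlier results of these data known. All members are named, and of other lists up to 4 called genes with the largest change, besides genes said to be named otherwise. Alternatives varied filter, scaling, pseudocount, probe set choice, variance model, weights, replicate block, arrays, threshold and a spline adjustment for gene density (genes within 500000 bases on either side) and length, known for 88.2% of features. Figures used matplotlib 3.10.9 in Python 3.11.15.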

Additional observations from a re-analysis of the deposited data

How the results depend on the processing

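Of 389 values of single genes under 21 alternatives, 346 kept direction and call, 25 lost the call and 18 changed sign. Igf2, Igf2r, Dlk1, Peg3, Dcn and Impact, 6 of the 19, kept their call under every alternative that gave a value. Scaling moved the counts most. As deposited, 265 of all features were higher (6.45% of the calls, against 51.9% after quantile normalization), with 0 imprinted genes and 0 of their probe sets higher. On the hybridisation controls 1108 features were higher and 5398 lower (17% higher), with 2 imprinted genes and 2 probe sets higher. On the Bacillus subtilis controls 100 features were higher and 7846 lower (1.26% higher), with 0 imprinted genes and 0 probe sets higher and 31 probe sets lower. Signs turned as deposited for Gnas (-0.01), Ndn (-0.46) and Nnat (-0.07), on the hybridisation controls for Gnas (-0.04), Ndn (-0.50) and Nnat (-0.10), and on the Bacillus subtilis controls for Cd81 (-0.62), Gnas (-0.92), Mest (-0.45), Ndn (-1.37), Nnat (-0.97), Osbpl5 (-0.64) and Tssc4 (-0.37). Without _s_at, _x_at and _a_at probe sets 12 imprinted genes were tested, 3 higher and 7 lower, fewer by construction. Of all 7375 features in that fit 2819 were higher and 2530 lower, and Meg3 (0.72) and Gnas (-0.76) turned. Gnas also turned with the mean over probe sets (-0.35). Adjusted for gene density and length, 7 imprinted genes and 12 probe sets were lower, with 2937 of all 8923 features lower. Grb10 (0.12) and Sgce (0.23) turned. The cause of these changes was not tested. Leaving out 1 array gave 6 to 7 higher and 10 to 12 lower imprinted genes, 7 to 10 and 17 to 19 probe sets, and 3040 to 3375 and 2757 to 3093 features. The labels number the arrays 1 and 2 in both genotypes, which pairs nothing by itself. Same-numbered arrays correlated at 0.273 in their deviations from the genotype means, and a replicate block left 7 higher and 12 lower imprinted genes, with 3825 and 3500 features. The 13 genes under the filter were dim on average over the arrays on the probe sets annotated to them alone. Joint probe sets of Snurf and Snrpn were brighter. Gatm passed the filter only through the Med1+/+ arrays.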
